A study of Homo sapiens with 6 samples.

Results

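The integrated stress response is described here through 10 genes that were chosen by name, namely ATF4, DDIT3, TRIB3, ASNS, CHAC1, SESN2, PSAT1, PHGDH, PPP1R15A and CEBPB. They are 10 of the 23228 gene symbols in the count tables, and all 10 had enough reads to be tested. RNA-seq was performed on MDA-MB-231, a human cell line established from a triple negative breast cancer (TNBC), to ask how loss of the proto-oncogene PELP1 alters gene expression. The control group held 3 replicates of cells stably expressing a non-targeted shRNA, and the PELP1-KD group held 3 replicates of cells stably expressing a PELP1 shRNA. Both kinds of cells were made with lentiviral particles and puromycin selection and grown in RPMI medium with serum, and no stress-inducing drug or nutrient withdrawal was named in the labels. A single shRNA against PELP1 was used, and nothing in the labels tells whether replicates came from separately selected cultures, so p-values measure the spread between these samples, which may be technical. Bulk RNA does not separate fewer cells of a kind from less RNA per cell.

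In the integrated stress response, kinases that sense amino acid shortage, ER stress, heme shortage or double-stranded RNA phosphorylate the initiation factor eIF2. General protein synthesis then falls, whereas translation of the ATF4 mRNA rises through its upstream reading frames. ATF4 protein enters the nucleus, pairs with C/EBP proteins and turns on genes for amino acid uptake and synthesis, for feedback and, under prolonged stress, for cell death. Much of ATF4 control therefore acts on translation, which counts of mRNA do not measure. ATF4 and C/EBP dimers bind a composite element called CARE, whose core is searched here as TGATGNAA on both strands. In breast cancer cells the serine synthesis part of this program is also known to vary between lines with the level of PHGDH.

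Short stretches from RefSeq promoter windows (GRCh38.p14, 250 bases before to 50 after each start, all 10 genes matched) are given to show where this element stands in genes of the response. Capitals mark the motif, and every stretch is written 5′ to 3′ on the strand of its gene. The first 4 hold the CARE core, in CHAC1 as its reverse complement, and the last holds the cAMP response element (CRE), searched as TGACGTCA. Positions are counted from the transcription start, with -1 as the base before it. A gene can have several starts, and only the first window with a match before its start is shown.
ASNS, chr7:97872458-97872487, minus strand, motif from -68 to -61: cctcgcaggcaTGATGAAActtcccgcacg
CHAC1, chr15:40953251-40953280, plus strand, motif from -209 to -202: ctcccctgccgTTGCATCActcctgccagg
ATF3, chr1:212565205-212565234, plus strand, motif from -191 to -184: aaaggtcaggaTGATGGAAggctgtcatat
CEBPG, chr19:33374060-33374089, plus strand, motif from -42 to -35: cgcgcggcgtcTGATGCAAcctgccggcaa
PPP1R15A, chr19:48872352-48872381, plus strand, motif from -58 to -51: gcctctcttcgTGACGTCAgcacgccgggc
The CARE core was present in 3.62% of all 35116 promoter windows and the CRE in 1.85%. Counted by gene, 4.46% of the 27305 gene symbols had a window with the CARE core and 2.25% one with the CRE. Among the 10 genes, ASNS and CHAC1 held the CARE core and PPP1R15A held the CRE. The ASNS and CHAC1 stretches overlap exons of the same genes in the GENCODE 29 annotation, and the other 3 overlap none. A match is a match of letters, and the absence of a match says only that these letters are not in the window.

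Reads counted on genes ranged from 17304864 to 23132102 per replicate, and 3 reads, taken as the floor of detection, correspond to between 0.127 and 0.177 CPM (read counts scaled to a common library total). Such a floor covers counting error only. PELP1 itself fell from 57.8 ± 2.14 CPM in control cells to 29.6 ± 0.876 CPM after knockdown (mean ± SD, n = 3 each). Of 6 genes that mark this mesenchymal line (VIM, CD44, AXL, EGFR, CAV1 and MET), all were expressed, with summed levels from 5893 to 5955 CPM in the controls and from 4898 to 4930 CPM in PELP1-KD cells, and all 6 were lower after knockdown. Of 7 luminal markers, ESR1, PGR and CDH1 had at most 4 reads in any replicate, and the summed level of the list was between 21.7 and 24.0 CPM in all 6 replicates. FOXA1, a luminal pioneer factor named after its value was seen, was the one luminal marker called, and it was lower, with 11, 26 and 20 reads in the controls against 7, 0 and 5 after knockdown (log2FC -2.37, adjusted p-value 5.10e-04). By the test described below, 24.2% of all tested genes were lower. The part of these markers in the results below was not tested.

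PELP1 knockdown changed the 10 genes unevenly. PHGDH, CHAC1, ASNS, CEBPB, TRIB3 and PPP1R15A rose, PSAT1 fell, and ATF4, DDIT3 and SESN2 did not pass the test. The rises in mean CPM ranged from 8.07% for PPP1R15A to 101% for PHGDH. Calls come from edgeR's quasi-likelihood test at a Benjamini-Hochberg adjusted p-value below 0.05 over the 12796 tested genes, and log2FC is the log2 fold change of PELP1-KD over control. By this rule, 6 of the 10 genes were higher and 1 was lower, where 22.7% of all tested genes were higher and 24.2% were lower. With library totals in place of TMM scaling, which moved the median of all genes to 0.051, 3817 genes were higher and 2418 lower over the whole table, against 2904 and 3103, and 7 of the 10 genes were higher and 1 was lower. The median log2FC of the 10 genes was 0.17, that of all tested genes 0.0014. None of the 10 passed an adjusted p-value of 0.05 together with a log2FC beyond 1, which 3.24% of all tested genes did. PHGDH had a log2FC of 0.98 in the edgeR fit, although its mean CPM rose by 101%. The replicates of the groups did not overlap in 8 of the 10 genes, with PELP1-KD above in 7 and below in 1, and they did not overlap in 55% of all tested genes. For each of these 8 genes the two-sided exact permutation test of CPM gave p = 0.1, the smallest value that 3 replicates against 3 allow.

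**Figure D1:**
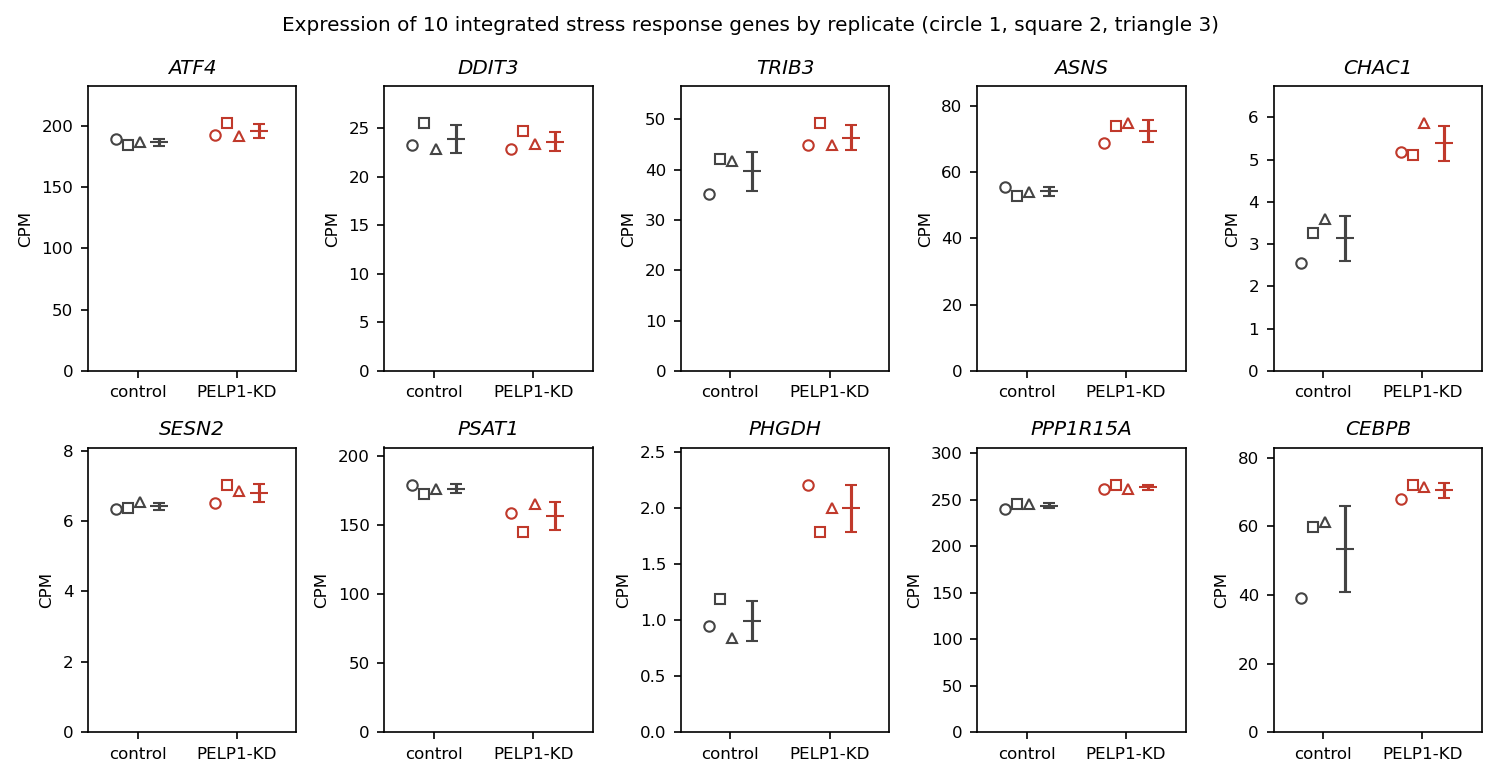
CPM of each of the 10 genes (y axis from 0) in the 3 control replicates (grey) and the 3 PELP1-KD replicates (red), with the mean and SD of each group as a bar beside the points. All PELP1-KD points of ASNS, CHAC1 and PHGDH lie above the control points, those of DDIT3 and SESN2 overlap them, and control replicate 1 of CEBPB stands below the other controls at 39.1 CPM.

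Base composition moved with the comparison and bears on these calls. GC content was taken from the longest GENCODE transcript of each gene and was known for 96.0% of the tested genes. In the decile of genes with the lowest GC content the median log2FC was -0.16, and in the decile with the highest it was 0.13. The 6 libraries were not alike in this. In the highest decile the median log2 CPM relative to the mean of all 6 was -0.16 in control replicate 1 and 0.12 in PELP1-KD replicate 2, and between -0.012 and 0.043 in the other 4. In the lowest decile it was 0.16, 0.048 and 0.043 in control replicates 1, 2 and 3. In PELP1-KD replicates 1, 2 and 3 it was -0.045, -0.14 and -0.056 there. All libraries of a group thus leaned the same way at both ends, so the trend cannot be told apart from the comparison. The 10 genes ranged from 42.3% GC in PSAT1 to 66.2% in CEBPB. When the trend with GC content in each library was entered into the model, an alternative chosen after the data were seen, 4 of the 10 genes were higher (ASNS, CHAC1, PHGDH and CEBPB) and 1 was lower (PSAT1), where 22.8% of all tested genes were higher and 28% were lower. The median log2FC of the 10 genes was then 0.033, where that of all tested genes was -0.011. Such an adjustment also removes any change that follows GC content for other reasons, and the origin of the trend was not tested.

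**Figure D2:**
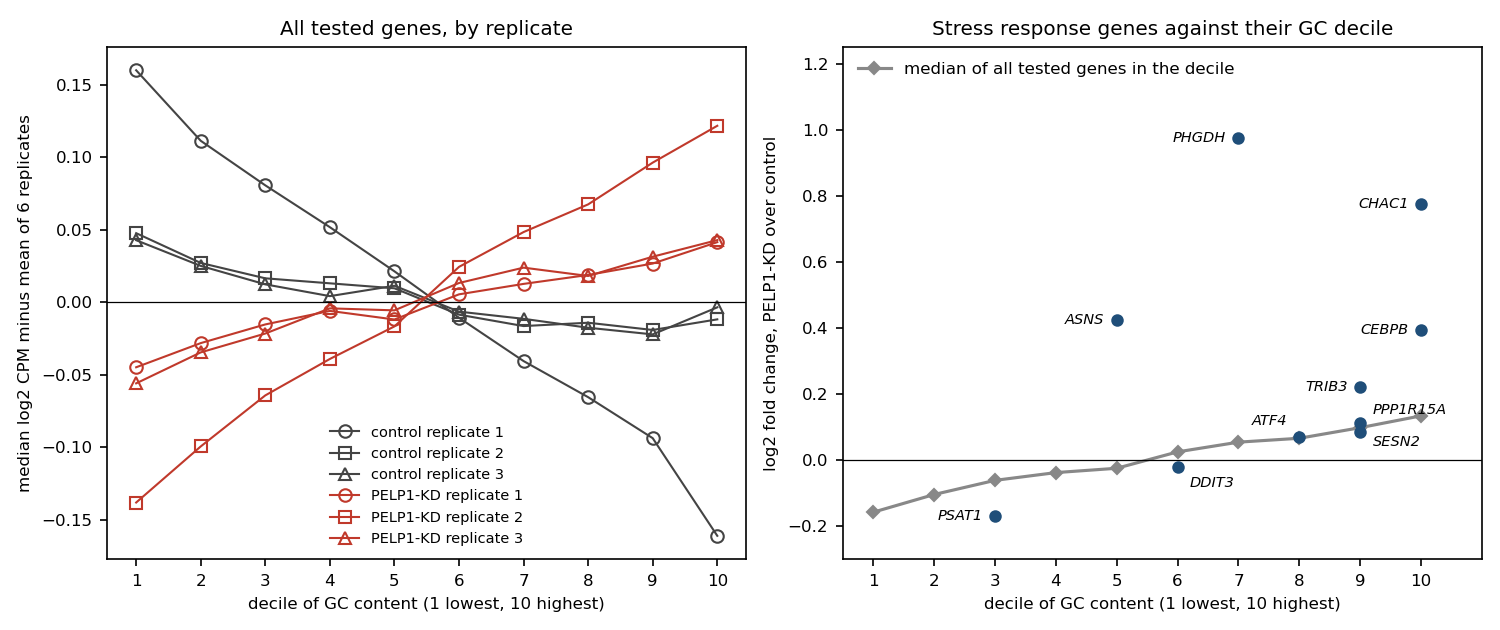
Left, the median log2 CPM of tested genes in each decile of GC content, relative to the mean of the 6 replicates, with 1 line per replicate (grey control, red PELP1-KD). Right, the log2FC of the 10 genes plotted at their GC decile, with the median of all tested genes in grey. Control replicate 1 and PELP1-KD replicate 2 have the steepest lines, and ASNS, CHAC1, PHGDH and CEBPB lie well above the median of their decile while ATF4, SESN2 and PPP1R15A lie near it.

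**Figure D3:**
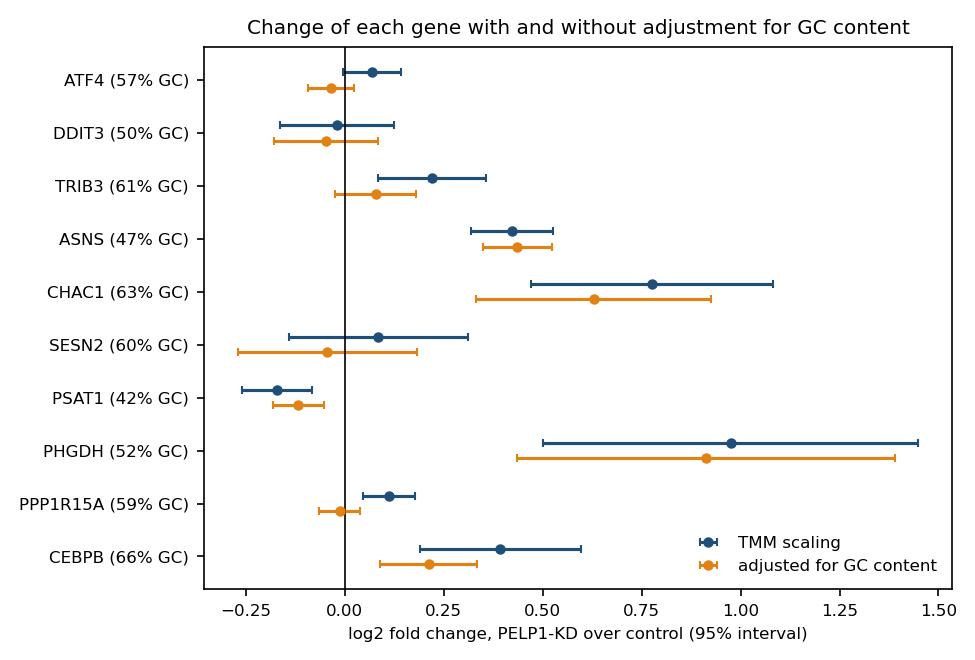
The log2FC of each of the 10 genes with its 95% interval, as scaled by TMM (blue) and after adjustment for GC content (orange), with the GC content of each gene beside its name. The intervals of ASNS, CHAC1, PHGDH and CEBPB stay above 0 and that of PSAT1 below 0 under both, whereas those of TRIB3 and PPP1R15A include 0 after the adjustment.

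ATF4, the transcription factor at the center of the response, lies at chr22:39519695-39522685 on the plus strand of GRCh38 and was among the most abundant of the 10 genes. Its level was 189, 184 and 187 CPM in control replicates 1, 2 and 3 and 193, 202 and 192 CPM in PELP1-KD replicates 1, 2 and 3. The PELP1-KD replicates were all above the controls, but by little. The log2FC was 0.07 (95% interval -0.0041 to 0.14, adjusted p-value 0.113). It was 0.046 without PELP1-KD replicate 2, the highest replicate (adjusted p-value 0.318). With scaling by library totals and no TMM factor, ATF4 passed the test with a log2FC of 0.12 (adjusted p-value 0.00781), and after adjustment for GC content the log2FC was -0.034 (adjusted p-value 0.322). ATF4 has 4 pseudogenes by name in GENCODE, and reads that aligned to more than 1 place were counted on no gene. The tested genes with the most similar course over the 6 samples, by root mean square difference of centered log2 CPM, were SLC39A1 at 0.0066, STAT6 at 0.0081 and STK32C at 0.0095. None of them passed the test, at adjusted p-values of 0.0611, 0.141 and 0.399, so they resemble ATF4 in changing little.

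DDIT3 encodes CHOP, a C/EBP-family factor that ATF4 induces and that promotes cell death under prolonged ER stress. It lies at chr12:57516588-57521737 on the minus strand. DDIT3 had 23.2, 25.5 and 22.9 CPM in the controls against 22.8, 24.7 and 23.3 CPM after knockdown. The groups overlapped throughout, with a log2FC of -0.02 (95% interval -0.16 to 0.12, adjusted p-value 0.832). In GENCODE the gene overlaps MARS and MBD6 on the opposite strand, and AC022506.1 and MIR616 on the same strand. Although the library kit keeps the strand, the annotation and strand setting of the counting are not given in the sources used here. The value of DDIT3 is therefore uncertain.

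CEBPB encodes C/EBPβ, a partner of ATF4 at CARE elements, and is a gene without introns at chr20:50190734-50192689 on the plus strand. Its level was 39.1, 60.0 and 61.2 CPM in control replicates 1, 2 and 3 and 68.0, 72.2 and 71.4 CPM in the PELP1-KD replicates. Every PELP1-KD replicate was above every control, yet control replicate 1 was 35.5% below the mean of the other controls. The log2FC was 0.39 (standard error 0.098, adjusted p-value 0.00242). This size rests partly on that library, since without control replicate 1 the log2FC was 0.22 (adjusted p-value 2.40e-04). CEBPB did not pass in DESeq2, with a log2FC of 0.40 (adjusted p-value 0.117), and after adjustment for GC content its log2FC was 0.21 (adjusted p-value 0.00348). The antisense gene CEBPB-AS1 overlaps it.

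TRIB3 encodes a pseudokinase that CHOP and ATF4 induce and that restrains both AKT and ATF4. The gene lies at chr20:362835-397559 on the plus strand. TRIB3 had 35.2, 42.1 and 41.7 CPM in the controls against 44.9, 49.3 and 45.0 CPM after knockdown. The lowest value was again that of control replicate 1 and the highest that of PELP1-KD replicate 2. The log2FC was 0.22 (standard error 0.066, adjusted p-value 0.00918). It was 0.14 without control replicate 1 (adjusted p-value 0.0392) and 0.18 without PELP1-KD replicate 2, where the call was lost (adjusted p-value 0.0608). After adjustment for GC content it was 0.079 (adjusted p-value 0.198).

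PPP1R15A encodes GADD34, which brings protein phosphatase 1 to eIF2 and so closes the feedback loop of the response. It lies at chr19:48872392-48876057 on the plus strand. Its level was 240.2, 245 and 245 CPM in the controls against 262, 266 and 262 CPM after knockdown. The groups did not overlap, and the log2FC was 0.11 (standard error 0.031, adjusted p-value 0.00595). This gene stands at 58.8% GC, in a decile whose median log2FC was 0.098, and its log2FC after adjustment for GC content was -0.012 (adjusted p-value 0.716). Without control replicate 1 and PELP1-KD replicate 2, whose GC trends were the steepest, PPP1R15A passed, with a log2FC of 0.094 (adjusted p-value 0.00206). The remaining libraries still leaned by group in this decile. Their median log2 CPM there, relative to the mean of all replicates, was -0.019 and -0.022 in controls and 0.027 and 0.031 in PELP1-KD. A GC trend thus remained in that fit, and its share in the value of 0.094 was not tested.

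SESN2 encodes sestrin 2, a leucine sensor that ATF4 induces and that restrains mTORC1. It lies at chr1:28259527-28282491 on the plus strand. SESN2 had 6.33, 6.38 and 6.53 CPM in the controls against 6.52, 7.03 and 6.84 CPM after knockdown. The lowest PELP1-KD replicate lay within the controls. The log2FC was 0.085 (95% interval -0.14 to 0.31, adjusted p-value 0.543), and the 107 to 161 reads per replicate leave an interval wider than that of ATF4. Adjusted for GC content, the log2FC was -0.044, again without a call.

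ASNS encodes asparagine synthetase, which makes asparagine from aspartate and glutamine and is a classic target of ATF4 through the element printed above. It lies at chr7:97852118-97872542 on the minus strand. ASNS had 55.5, 52.9 and 54.1 CPM in the controls against 68.6, 73.9 and 74.8 CPM after knockdown. The rise of 33.8% was well beyond the spread within either group. The log2FC was 0.42 (standard error 0.050, adjusted p-value 6.62e-07), between 0.40 and 0.46 with each replicate left out in turn, and 0.44 after adjustment for GC content (adjusted p-value 1.42e-10). ASNS also has 4 pseudogenes by name, and in GENCODE it is overlapped by AC079781.5 on the same strand and AC005326.1 on the opposite strand.

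CHAC1 encodes a glutathione-degrading enzyme that lies downstream of ATF4, ATF3 and CHOP. It is found at chr15:40952962-40956519 on the plus strand. CHAC1 had 43, 74 and 64 reads in the controls against 101, 109 and 138 after knockdown. As CPM these were 2.54, 3.26 and 3.60 against 5.18, 5.11 and 5.86, and each PELP1-KD replicate was above each control. The log2FC was 0.78 (standard error 0.15, adjusted p-value 2.04e-04) and 0.63 after adjustment for GC content (adjusted p-value 4.78e-04). Control replicate 1 was 25.9% below the mean of the other controls, and without it the log2FC was 0.66.

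PHGDH, PSAT1 and PSPH catalyze the successive steps of serine synthesis from a glycolytic intermediate, and the first of these enzymes is known to be scarce in MDA-MB-231 cells. PHGDH lies at chr1:119648411-119744226 on the plus strand. It had only 16, 27 and 15 reads in the controls against 43, 38 and 47 after knockdown. These counts correspond to 0.946, 1.19 and 0.845 CPM in control cells and 2.21, 1.78 and 2.00 CPM in PELP1-KD cells. The groups were clearly apart at a very low level, with a log2FC of 0.98 (95% interval 0.50 to 1.45, adjusted p-value 0.00139). After adjustment for GC content the log2FC was 0.91 (adjusted p-value 0.00146).

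PSAT1, the aminotransferase of the next step, lies at chr9:78297143-78330093 on the plus strand and was abundant. It had 179, 173 and 177 CPM in the controls against 159, 145 and 165 CPM after knockdown. It was the sole gene of the 10 to fall, with every PELP1-KD replicate below every control and a log2FC of -0.17 (adjusted p-value 0.0025, standard error 0.043). PELP1-KD replicate 2 was the lowest. Adjusted for GC content, the log2FC was -0.12 (adjusted p-value 0.00225). PSAT1 also has 4 pseudogenes by name.

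Per kilobase of exon (RPKM, with the union of exons from GENCODE, which exceeds the length of a single mRNA), the 10 genes spanned a wide range. In control cells PSAT1 was at 80.6 RPKM ± 1.49 (SD, n = 3), PPP1R15A at 78.7 ± 0.937 and ATF4 at 74.2 ± 0.988. CEBPB followed at 27.3 RPKM, DDIT3 at 18.3, ASNS at 12.2, TRIB3 at 11.6, SESN2 at 1.86, CHAC1 at 1.52 and PHGDH at 0.108. Neighbors in this order did not overlap over the replicates, except PSAT1 with PPP1R15A and ASNS with TRIB3. In PELP1-KD cells the order was led by PPP1R15A at 85.1 RPKM ± 0.842 (SD, n = 3), ahead of ATF4 at 77.8 ± 2.30 and PSAT1 at 71.5 ± 4.67. CHAC1, at 2.62 RPKM ± 0.202 (SD, n = 3), stood above SESN2, at 1.97 ± 0.0755, and PHGDH remained the lowest at 0.216.

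Of 10 paralogs or related factors, 8 were tested, 2 were higher and 2 were lower, shares close to the 22.7% and 24.2% of all tested genes. TRIB2 rose from 39.2 ± 0.813 to 52.0 ± 1.73 CPM (mean ± SD, n = 3 each), with log2FC 0.41 (adjusted p-value 2.47e-06), while TRIB1 had a log2FC of -0.14 (adjusted p-value 0.393). PPP1R15B, the constitutive counterpart of GADD34, rose by 0.12 on the log2 scale (adjusted p-value 0.0196). CEBPG, a further dimer partner of ATF4, fell from 82.8 ± 5.21 to 66.7 ± 0.856 CPM (mean ± SD, n = 3 each), with log2FC -0.31 (adjusted p-value 2.95e-05). ATF5, another factor under translational control by eIF2, fell by 0.16 on the log2 scale (adjusted p-value 0.0416), a call that DESeq2 did not make (adjusted p-value 0.106). CEBPD had a log2FC of -0.063, CHAC2 of 0.071 and SESN1 of -0.10, none past the threshold. With GC content adjusted for, 3 of the 8 were higher and 3 lower, since CHAC2 then passed with a log2FC of 0.22 (adjusted p-value 8.16e-04) and CEBPD with -0.29 (adjusted p-value 0.0091), and ATF5 stood at -0.29. CEBPA and SESN3 had at most 6 reads in any replicate and were not tested.

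The upstream part of the pathway showed small changes. Of 20 listed eIF2 kinases with their regulators, eIF2 and eIF2B subunits and phosphatase subunits, all were tested, 7 were higher, 4 were lower and 9 did not pass. The median log2FC of this list was -0.028, and 22.7% of all tested genes were higher and 24.2% were lower. The largest rises were those of IMPACT, an inhibitor of the activation of the kinase GCN2, at a log2FC of 0.28 (adjusted p-value 0.00211), and of EIF2B3, a subunit of the exchange factor that reloads eIF2 with GTP, at 0.26 (adjusted p-value 1.82e-04). DNAJC3, an ER-linked inhibitor of eIF2 kinases, fell from 68.5 ± 2.08 to 53.6 ± 1.39 CPM (mean ± SD, n = 3 each), with log2FC -0.36 (adjusted p-value 4.44e-06). PPP1CB, a catalytic subunit of protein phosphatase 1, had a log2FC of -0.16 (adjusted p-value 0.00217) that became 0.011 on adjustment for GC content, at an adjusted p-value of 0.752.

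In a list of 13 stress regulators outside the 10 genes, 11 were tested, 3 were higher and 3 were lower, with a median log2FC of -0.063. These counts stand beside 22.7% higher and 24.2% lower over all tested genes. This list shares ATF5, CEBPA, CEBPD, CEBPG, TRIB1 and TRIB2 with the paralogs above, so its counts are not separate from theirs. ATF3, a stress-induced repressor in the same dimer network, had 8.22, 9.86 and 10.9 CPM in the controls against 15.1, 14.0 and 14.1 CPM after knockdown. Its groups did not overlap, and its log2FC was 0.57 (adjusted p-value 7.29e-05). DDIT4, which encodes the mTORC1 inhibitor REDD1 and responds to ATF4 as well as to hypoxia and glucocorticoids, moved the other way. It fell from 78.3 ± 3.03 to 29.2 ± 3.00 CPM (mean ± SD, n = 3 each), with log2FC -1.42 (adjusted p-value 2.35e-13).

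Of 19 listed enzymes of amino acid and one-carbon metabolism, 18 were tested, 7 were higher and 1 was lower, with a median log2FC of 0.11. Over all tested genes the shares were 22.7% higher and 24.2% lower. ALDH1L2, a mitochondrial folate enzyme, was called at a very low level, from 0.352 ± 0.0432 to 1.05 ± 0.345 CPM (mean ± SD, n = 3 each), with log2FC 1.58 (adjusted p-value 0.00111). SHMT2, which turns serine into glycine in mitochondria, fell from 310.2 ± 3.26 to 290 ± 5.04 CPM (mean ± SD, n = 3 each), with log2FC -0.098 (adjusted p-value 0.0127), or -0.20 when adjusted for GC content. PSPH, the last enzyme of serine synthesis, named after its value was seen, had a log2FC of 0.17 (adjusted p-value 0.0130). After adjustment for GC content, 7 enzymes were higher and 3 were lower.

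Among amino acid transporters, 7 were lower and 2 were higher of 11 tested out of 12 listed, and the median log2FC was -0.13. Among all tested genes 24.2% were lower and 22.7% were higher. SLC7A1, a carrier of arginine and lysine, had 367, 371 and 372 CPM in the controls against 242, 248 and 241 CPM after knockdown. These groups were far apart, with a log2FC of -0.60 (adjusted p-value 1.90e-12, standard error 0.030). SLC1A4, a carrier of small neutral amino acids, fell from 8.15 ± 0.795 to 5.35 ± 0.32 CPM (mean ± SD, n = 3 each), with log2FC -0.61 (adjusted p-value 2.22e-04). SLC7A5, the large neutral amino acid carrier, named after its value was seen, fell by 0.42 on the log2 scale (adjusted p-value 2.74e-10). SLC1A5, a glutamine carrier, had a log2FC of 0.19 (adjusted p-value 5.68e-05) and SLC43A1 one of 0.22 (adjusted p-value 0.0403), and neither passed once GC content was adjusted for, with adjusted p-values of 0.0961 and 0.319. In that adjusted fit 7 transporters were lower and 1 was higher. The latter was SLC7A11, named after its value was seen, with a log2FC of 0.27 (adjusted p-value 3.78e-10). Without the adjustment its log2FC was 0.096 (adjusted p-value 0.0877).

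Of the 13 tRNA synthetases and export factors listed as ATF4 targets, 3 were higher, 3 were lower and 7 did not pass the threshold. These shares are close to the 22.7% and 24.2% of all tested genes. The median log2FC of the list was 0.04. GARS rose by 0.19 on the log2 scale (adjusted p-value 2.78e-05) and MARS by 0.11 (adjusted p-value 0.00916). The call of MARS was lost on adjustment for GC content, at an adjusted p-value of 0.351. The tRNA exporter XPOT fell by 0.30 (adjusted p-value 1.04e-06) and EPRS by 0.21 (adjusted p-value 9.85e-05).

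Of 25 other reported targets of ATF4 or CHOP, 23 were tested, with 9 higher and 9 lower and a median log2FC of 0.011. The shares of all tested genes were 22.7% higher and 24.2% lower. This list shares DDIT4, ATF3, CEBPG and NUPR1 with the stress regulators, and further genes with the transporter and ER lists. Its counts are therefore not separate from theirs. GDF15, a secreted stress hormone, had 1.18, 1.41 and 1.52 CPM in the controls against 3.59, 4.92 and 4.04 CPM after knockdown, a log2FC of 1.60 (adjusted p-value 6.52e-07, standard error 0.19). STC2, a secreted glycoprotein of the ER stress response, rose from 1.16 ± 0.249 to 3.20 ± 0.51 CPM (mean ± SD, n = 3 each), with log2FC 1.50 (adjusted p-value 7.43e-06). FAM129A, which encodes the stress protein Niban, fell from 160 ± 9.92 to 79.9 ± 6.35 CPM (mean ± SD, n = 3 each), with a standard error of 0.053 on the log2 scale (adjusted p-value 4.64e-12). FGF21 had at most 1 read in any replicate. NUPR1 was not tested either, with 1, 5 and 5 reads in the controls against 8, 14 and 14 after knockdown.

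ER chaperones and the other arms of the unfolded protein response, controlled mainly by ATF6 and XBP1 rather than ATF4, were mostly lower. All 24 listed genes were tested, 15 were lower and 3 were higher, and the median log2FC was -0.14. By comparison, 24.2% of all tested genes were lower and 22.7% were higher. SYVN1, a ubiquitin ligase of ER-associated degradation, fell from 64.4 ± 1.69 to 37.6 ± 2.74 CPM (mean ± SD, n = 3 each), with log2FC -0.78 (adjusted p-value 5.89e-10). MBTPS1, the protease that activates ATF6, fell by 0.48 on the log2 scale (adjusted p-value 8.37e-10). HSPA5, the chaperone BiP, named after its value was seen, stood at 997 ± 10.3 CPM before and 926 ± 9.14 CPM after knockdown (mean ± SD, n = 3 each), with log2FC -0.11 (adjusted p-value 0.00142). SDF2L1 and ERN1, the latter encoding the sensor IRE1, rose by 0.51 and 0.42 on the log2 scale, at adjusted p-values of 9.20e-06 and 0.00627, and SDF2L1 by 0.33 when adjusted for GC content. After adjustment for GC content, 17 of the 24 genes were lower and 5 were higher.

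**Figure D4:**
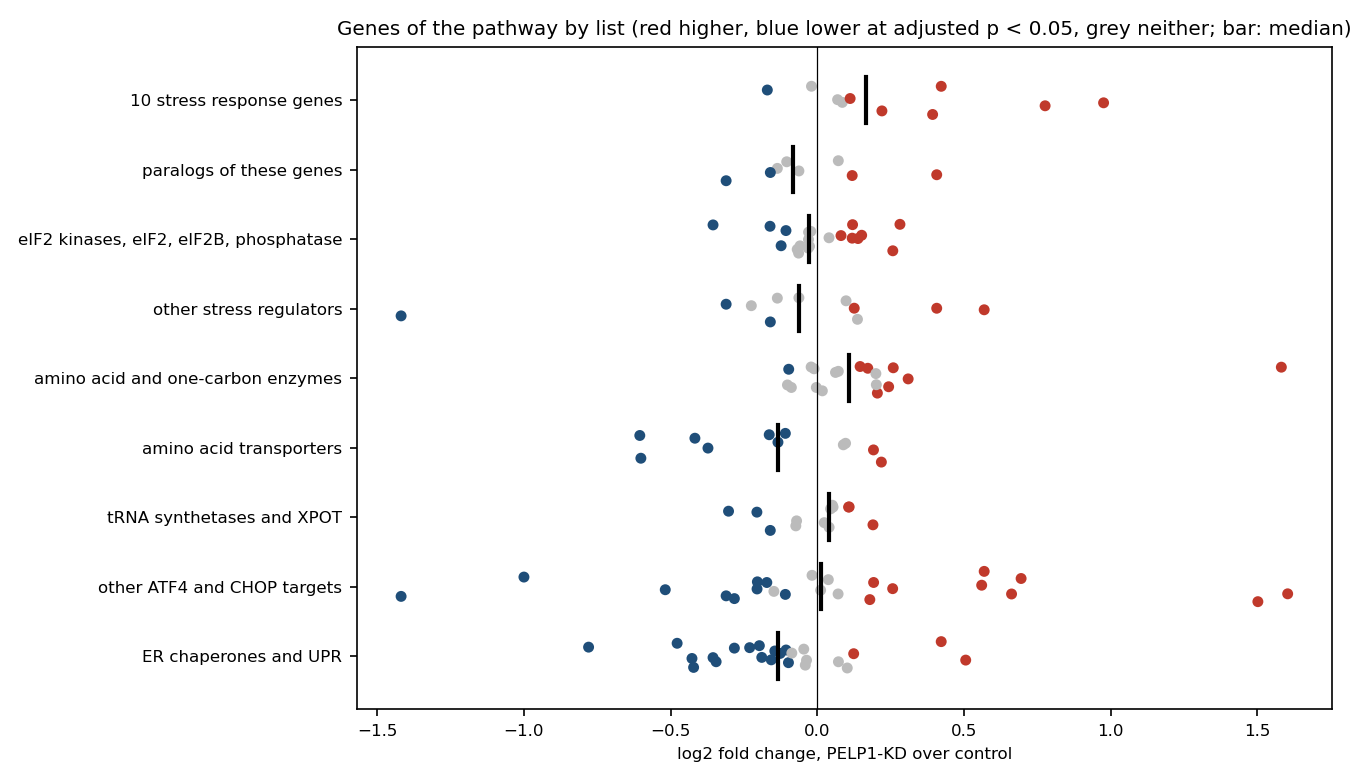
The log2FC of each tested gene in the 10-gene set and in the 8 other lists of the pathway, 1 row per list, with calls at an adjusted p-value below 0.05 in red (higher) or blue (lower), other genes in grey and the median as a black bar. Transporters and ER chaperones lie mostly to the left of 0, whereas 6 of the 10 stress response genes lie to the right as red points. Some genes, such as DDIT4, stand in more than 1 list.

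Genes that carry the CARE core in their promoter window moved in both directions. So did all tested genes, with 22.7% higher and 24.2% lower. Together with ASNS and CHAC1, 22 of the listed genes held it, of which 21 were tested, 8 were higher and 7 were lower, with a median log2FC of 0.045. ASNS, CHAC1 and ATF3 rose, whereas CEBPG, printed beside them above, fell, as did SLC7A1 and SLC1A4. Another 88 listed genes had a promoter window without the core, of which 85 were tested. Of these, 23 were higher and 28 were lower, with a median log2FC of -0.021. Adjusted for GC content, 8 genes with the core were higher and 8 lower, against 22 and 30 of those without it. In that fit 22.8% of all tested genes were higher and 28% were lower. The remaining 21 listed genes had no window and were not searched.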

How the data were processed

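Per the labels, the processing notes name bcl2fastq, TopHat2, SAMtools and HTSeq and the build hg19; versions, annotation and strand setting are not given in the sources used here. The library kit was a stranded one. The authors deposited raw read counts per gene symbol for each replicate, with no replicates pooled. Reads on more than 1 place (32.5% to 32.9% of all) and reads on no single gene stand in closing rows and were left out of library sizes and tests. The authors' own comparison used DESeq2.

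Counts were tested in edgeR 4.0.16 (R 4.3.3) by the quasi-likelihood test with TMM scaling, a default filter at a minimum of 10 counts, and Benjamini-Hochberg adjustment over the 12796 tested genes. CPM uses TMM-scaled library sizes. Standard errors were derived from the log2FC and the F statistic. The scripts were tested on simulated data. Coordinates, exon lengths and GC content come from GENCODE 29 on GRCh38, a different build from that of the counts, so they describe the genes and not the counted features. Replicates of a group differed by more than sampling noise (chi-square per degree of freedom 1.46 to 3.99).

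The genes and lists were chosen, from general knowledge, with earlier results of these data known. The genes named are the 10 genes, PELP1, their paralogs, the up to 2 genes with the largest change in each direction in each list, and the 3 genes nearest to ATF4; others are marked, and 1 gene under this rule is not reported here. Alternatives were RLE scaling, library totals, DESeq2 1.42.0, voom in limma 3.58.1, other filters, a block on replicate number, fits lacking 1 replicate, and, added after seeing the data, adjustment for GC content (loess, span 0.3) and leaving out the libraries with the steepest GC trend.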

Additional observations from a re-analysis of the deposited data

How the results depend on the processing

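The numbers 1 to 3 in the labels are shared between groups, but same-numbered replicates did not deviate together (correlations 0.039, 0.065 and -0.078), so they were not treated as pairs; with the replicate block 6 of the 10 genes were higher and 1 was lower, as without it, and the log2FC of CEBPB was 0.41. RLE scaling, voom and no filter changed no call among the 10 genes and no list count by over 1.5 times. With library totals the log2FC was 0.12 for ATF4, now past the threshold, and 0.029 for DDIT3, 1 gene (PHGDH) passed a log2FC of 1, and over all genes 3817 were higher and 2418 lower, against 2904 and 3103 with TMM. That scaling also gave 1 lower paralog, 2 lower genes of the eIF2 list, 5 higher stress regulators, 0 lower enzymes and 7 higher synthetases. DESeq2 gave CEBPB 0.40 without a call, 1 lower paralog and 1 higher transporter. Requiring 10 counts in every replicate left 240 genes of all past a log2FC of 1, against 414.

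Adjusted for GC content, the log2FC was -0.034 for ATF4, 0.079 for TRIB3, -0.044 for SESN2 and -0.012 for PPP1R15A, with 3 lower enzymes, 1 higher transporter and 5 higher ER genes. With GC content and the replicate block together these were -0.034, 0.081, -0.046 and -0.013, with the same 3 counts (3, 1 and 5) and 5 lower synthetases. Without control replicate 1 and PELP1-KD replicate 2, TRIB3 was at 0.10 without a call, 1 gene (PHGDH) passed a log2FC of 1 and 5 synthetases were higher. The causes were not tested.

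When single replicates were dropped, log2FC ranged from -0.052 to 0.034 for DDIT3, from 0.046 (without PELP1-KD replicate 2) to 0.083 for ATF4, from 0.22 (without control replicate 1) to 0.49 for CEBPB and from 0.14 to 0.27 for TRIB3, and 0 to 1 of the 10 genes passed a log2FC of 1 (PHGDH, without control replicate 2 or PELP1-KD replicate 2). Among the lists, counts ranged from 1 to 2 for higher paralogs, 1 to 2 for lower paralogs, 4 to 6 for higher and 2 to 4 for lower genes of the eIF2 list, 0 to 1 for lower enzymes and 1 to 3 for higher transporters, and replicates 2 and 3 of the controls and every PELP1-KD replicate moved at least 1 of these counts by over 1.5 times. Depth limits PHGDH, ALDH1L2 and other genes near 1 CPM most.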
